A study of Mus musculus with 32 samples.

Results

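The genes described here are those of MHC class I, the molecules that show peptides to T cells, and of the interferon response, in the striatum of zQ175 mice with and without Msh3. They were chosen by name: protein-coding genes whose GENCODE M21 symbol begins with H2-, Ifi followed by a digit or t, Irf and a digit, Stat and a digit, or Oas, together with B2m, Tap1, Tap2, Tapbp, Isg15, Mx1, Mx2 and Bst2. The rule found 99 of the 54532 genes in the count table, and 15 further matching symbols, Mx2 among them, belonged to pseudogenes or other gene types and were not members. The pattern also takes in genes of MHC class II and a gene of steroid and fatty acid metabolism, H2-Ke6, which is named only for its place in the MHC.

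Class I molecules are made of a heavy chain, such as H2-K1 or H2-D1, and the invariant chain beta-2 microglobulin (B2m), and they are loaded with peptides that the transporter Tap1 and Tap2 carries into the endoplasmic reticulum, where tapasin (Tapbp) holds the empty molecule. Interferons bind receptors whose kinases activate Stat proteins, which join Irf9 and bind a short promoter sequence, the interferon-stimulated response element. The genes switched on in this way include antiviral proteins of the Ifit, Oas and Ifitm families, the ubiquitin-like modifier Isg15, tetherin (Bst2) and the factor Irf7, and class I genes follow. In the healthy brain microglia and endothelial cells carry most class I, and neurons have little.

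Striata came from 32 littermates aged 6 months on a C57BL/6J background. The 4 genotypes were wild-type (8 mice), zQ175 (8 mice), Msh3-/- (8 mice) and the cross of both, zQ175:Msh3-/- (8 mice). zQ175 mice carry an expanded CAG repeat knocked into their own Htt gene, and Msh3-/- mice descend from 1 line in which CRISPR Cas9 was aimed at exons 3 and 8 of Msh3, a mismatch repair gene. There were 4 females and 4 males in each group apart from zQ175:Msh3-/-, with 3 females and 5 males. Libraries were made from polyadenylated RNA of whole striatum, so fewer cells of a type and less RNA per cell cannot be told apart.

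Msh3 RNA was between 22.8 and 27.5 CPM (reads per 1000000 of the library) in every mouse with the gene and between 10.4 and 14.2 CPM in every knockout, so no mouse went against its label. All 8 markers of striatal spiny neurons were measured, with sums of 3324 to 7519 CPM. Total counts lay between 12359347 and 25030335 per mouse, and counts in a single mouse carry counting error that is largest for members under 1 CPM.

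The 6 promoter stretches shown hold the letters of the interferon-stimulated response element, in 5 interferon-stimulated members and in B2m, the shared chain of class I. The motif searched was GAAA, any 2 bases and GAAA again, on both strands, where matches may overlap each other. RefSeq windows of GRCm38.p6, from 250 bases before to 50 bases after each gene's start, were held for 85 of the 99 members. The stretches read from 20 bases before the first match to 20 bases after the last or to the start, 5′ to 3′ on the strand of the gene, with matches in capitals.
Isg15 (chr4:156200855-156200916, minus strand): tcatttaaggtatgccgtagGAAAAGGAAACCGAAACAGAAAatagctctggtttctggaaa
Ifit1 (chr19:34640765-34640833, plus strand): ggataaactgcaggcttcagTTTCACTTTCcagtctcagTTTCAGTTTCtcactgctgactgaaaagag
Ifit3 (chr19:34583353-34583436, plus strand): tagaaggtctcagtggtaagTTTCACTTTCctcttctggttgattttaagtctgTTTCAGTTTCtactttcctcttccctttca
Bst2 (chr8:71537567-71537622, minus strand): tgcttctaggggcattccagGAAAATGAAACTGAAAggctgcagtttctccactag
Oas1a (chr5:120907526-120907565, minus strand): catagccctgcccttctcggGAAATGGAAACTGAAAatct
B2m (chr2:122147528-122147577, plus strand): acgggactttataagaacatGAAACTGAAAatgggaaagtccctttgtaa

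Isg15 held 3 overlapping matches, Ifit1, Ifit3, Bst2 and Oas1a held 2 each, and B2m held 1. The letters were found in 28.0% of the members' 100 windows and in 3.44% of all 32851 windows. For TTCNNNGAA, the element bound by Stat dimers, the shares were 13.0% and 8.3%. The windows of H2-K1, H2-D1, Irf7 and Oasl2 held no match of the first motif. A match describes letters and not a bound site.

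Of the 99 members, 59 had enough reads to be tested. The other 40 stayed at or below 0.731 TPM on average, where TPM is the level per gene length and library, and 7 of them had no read in any mouse: H2-M1, H2-M10.3, H2-M10.4, H2-M10.5, H2-M10.6 and H2-M11, class I genes known from other tissues, and Ifi44l. All 3 genes of the classical class I molecule, all 3 of peptide loading, 6 of 7 Stat genes and 8 of 9 Irf genes could be tested, but only 9 of 22 non-classical class I genes, 4 of 11 Oas genes and 1 of 11 Ifi200 genes, which code for DNA sensors. Mx1, whose product blocks viral replication, had 95 reads over all mice and was not tested.

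B2m (chr2:122147686-122153083) was the most abundant member, with a mean of 132.9 TPM and a range of 107.4 to 181.4 TPM over the 32 mice. H2-Ke6 followed with a mean level of 62.5 TPM and Ifi27, a small mitochondrial protein induced by interferon, with 51.5 TPM. The heavy chains H2-D1 (chr17:35262730-35267499) and H2-K1 (chr17:33996017-34000347) had mean levels of 49.3 and 42.3 TPM. Tap1 was far lower, at 2.30 TPM, as were the class II chains H2-Aa, at 1.19 TPM, and H2-Ab1, at 1.25 TPM. Among the factors, Irf3 (37.0 TPM), Stat3 (31.7 TPM) and Stat5b (22.2 TPM) had higher mean levels than Irf9 (9.82 TPM) or Irf7 (2.48 TPM). The class I heavy chains share long stretches of sequence, as do Ifit3 and Ifit3b, so reads may have been divided between them.

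A set of 6 mice stood apart from the other 26 in the interferon-stimulated members, and values without them follow beside the results that rest on them. They were females 2 and 3 and male 1 of the Msh3-/- group, female 2 of the zQ175 group, and female 2 and male 4 of the zQ175:Msh3-/- group, with no wild-type mouse among them. The same 6 mice were the 6 highest of 32 for Ifit1, Ifit3, Isg15, Oasl2 and Irf7. They were picked by Ifit3 and Oasl2, so their height in those genes is a description.

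Oasl2, an antiviral protein related to the 2-5A synthetases, was at 9.54, 10.3 and 6.65 CPM in the Msh3-/- mice of the 6, at 7.63 CPM in the zQ175 mouse and at 6.04 and 7.41 CPM in the zQ175:Msh3-/- mice. In the other 26 mice it lay between 1.90 and 5.24 CPM, with no overlap. Ifit3, which binds other Ifit proteins on viral RNA, lay between 10.3 and 19.1 CPM in the 6 mice and between 4.69 and 8.62 CPM in the others. Isg15, which is conjugated to proteins like ubiquitin, lay between 2.12 and 3.53 CPM and between 0.539 and 1.77 CPM. Irf7, the factor that amplifies interferon transcription, lay between 2.72 and 4.21 CPM and between 0.776 and 2.19 CPM. In each of these genes the lowest of the 6 mice was above the highest of the rest.

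Class I genes were less far apart, and the ranges overlapped. H2-D1 lay between 47.3 and 55.3 CPM in the 6 mice and between 32.9 and 49.1 CPM in the others, and H2-K1 between 29.5 and 36.3 CPM and between 22.8 and 32.7 CPM. B2m lay between 49.7 and 63.2 CPM and between 38.1 and 53.8 CPM, and 4 of the 6 mice were among its 6 highest. Tap1 lay between 3.08 and 4.26 CPM in the 6 mice and between 1.75 and 3.64 CPM in the others. Stat3, Irf1, Irf3, Irf8, H2-Aa and H2-Ab1 had at most 2 of the 6 mice among their 6 highest, so neither the class II chains nor these factors stood out in the same mice.

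**Figure D1:**
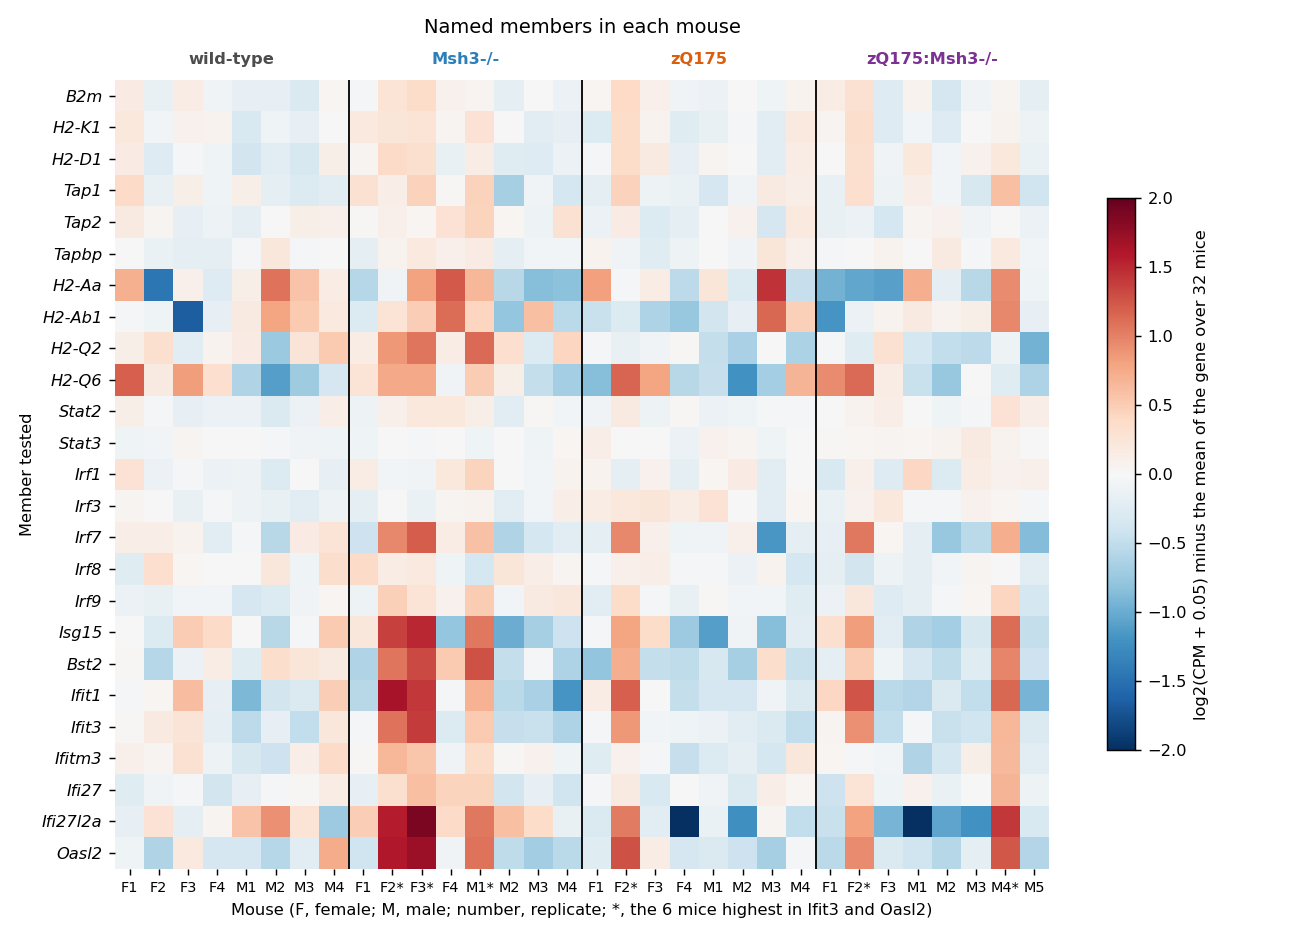
Each row is a named member that was tested and each column a mouse, and the colour gives log2(CPM + 0.05) minus the mean of the gene over the 32 mice. The 6 mice marked with a star are high together in Irf7, Isg15, Bst2, Ifit1, Ifit3 and Oasl2, while Stat3, Irf3 and Tapbp stay close to their means in every mouse.

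The 3 members by which the mice were picked, Ifit3 and Oasl2 among them, were left out of the next counts. Of the other 16607 genes tested, 25 had at least 5 of these 6 mice among their 6 highest, and 11 of the 25 were members. The members include Ifit3b, whose reads may be divided with Ifit3. A further 11 were on the lists of other interferon pathway genes, which had been chosen with earlier results of these data known. Among them were Usp18, the protease that removes Isg15 and restrains the receptor, and Ddx58, the RNA sensor RIG-I. The remaining 3 were Mx2, Rnf213 and Zc3hav1, named after their values were seen, of which Mx2 and Zc3hav1 are known antiviral genes. Ranges for Usp18 were 1.57 to 2.79 CPM in the 6 mice and 0.245 to 1.73 CPM in the others.

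**Figure D2:**
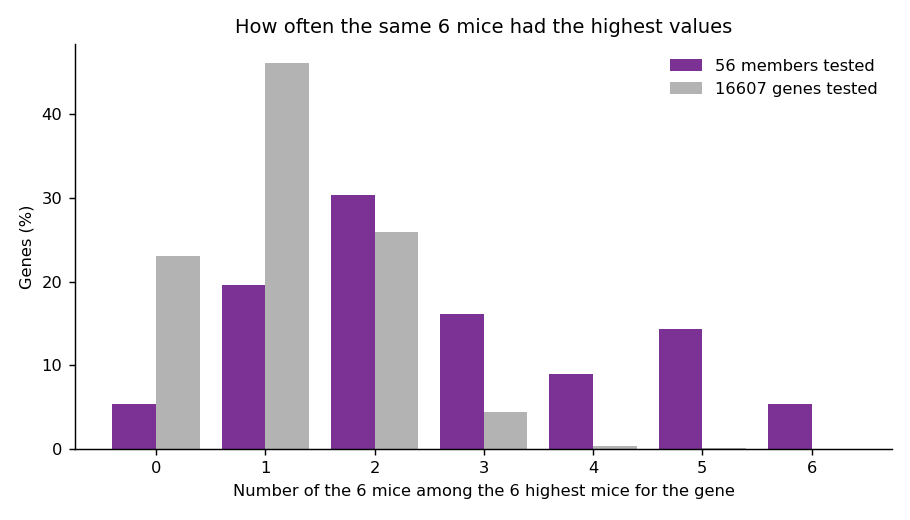
Bars give the percentage of 56 members and of 16607 genes tested that have 0 to 6 of the 6 mice among their 6 highest mice, without the 3 members by which the mice were picked. All 6 were the highest for 5.36% of members and 0.0301% of genes, and 5 of them for 14.3% and 0.12%.

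The interferons themselves were close to absent. Of 21 ligand genes, 17 had no read in any mouse, and the other 4 (Ifnb1, Ifng, Ifnk and Ifnz) had 14 reads in all, with at most 4 in 1 mouse. Markers of B cells summed to 0.0977 to 0.895 CPM and those of monocytes and neutrophils to 0.13 to 0.907 CPM over the 32 mice, and in the 6 mice they reached 0.459 and 0.461 CPM. The 15 microglial markers, all detected, summed to 479.2 to 592.0 CPM in the 6 mice and 466.7 to 613.9 CPM in the others, and the 10 endothelial markers to 200.9 to 280.4 CPM and 176.0 to 278.6 CPM. The 7 markers of T and NK cells, of which 2 had enough reads to be tested, summed to 43.3 to 81.4 CPM in the 6 mice. In the others they summed to 37.6 to 85.2 CPM. Choroid plexus markers, from tissue that borders the striatum, summed to 64.5 to 2990.0 CPM in the 6 mice, with a median of 560.3 CPM, and to 32.5 to 1852.0 CPM in the others, with a median of 78.9 CPM. The part of choroid plexus in the height of the 6 mice was not tested.

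Markers of microglia and of T and NK cells were also compared between genotypes. Against wild-type, zQ175 mice had less of 14 of the 15 microglial markers (median log2 fold change −0.10, 4 with an edgeR adjusted p under 0.05, 0 past both thresholds). In zQ175:Msh3-/- against Msh3-/- mice 14 were lower as well, with a median of −0.15, 8 with an edgeR adjusted p under 0.05 and 1, Tyrobp, past both thresholds. Of all 16610 genes tested, 4398 had an edgeR adjusted p under 0.05 in the first comparison and 4002 in the second. T and NK markers summed to 63.4 to 85.2 CPM in wild-type and 65.4 to 81.4 CPM in Msh3-/- mice, and to 37.6 to 56.9 CPM in zQ175 and 42.97 to 51.6 CPM in zQ175:Msh3-/- mice, with no overlap. Of the 7 genes 2 had enough reads to be tested, and the sums rest mainly on these 2. Cd4, the T cell coreceptor, fell by 0.77 and by 0.70 in log2 in the comparisons. The other was higher, by 0.60 and by 0.70 in log2, and did not pass. As the tested T and NK markers went in opposite directions, the sums do not speak for the whole list. Whether the numbers of these cells changed, and their part in the members' changes, was not tested.

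Members varied more between mice of a genotype than most genes did. The biological coefficient of variation, the spread between mice beyond counting error, had a median of 0.153 over the 59 members and 0.0794 over all genes tested. It was over 1.5 times the value usual at the gene's abundance for 27.1% of members and 6.97% of all genes. Oasl2 (0.505), Ifit1 (0.51), Isg15 (0.452) and Ifit3 (0.368) had wide spreads, while that of Irf1 was 0.0948. The medians without the 6 mice were 0.14 over 58 members and 0.0815 over all genes, and 5.17% of members and 6.96% of genes were over 1.5 times the usual value. The 6 mice had been picked as the highest in Ifit3 and Oasl2. A narrower spread in these genes, and in members high in the same mice, was thus set by that choice. The coefficients without the 6 mice were 0.192 for Oasl2, 0.224 for Ifit1, 0.21 for Isg15, 0.141 for Ifit3 and 0.0989 for Irf1. A change of a given size is therefore harder to detect in these interferon-stimulated members than in Irf1.

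**Figure D3:**
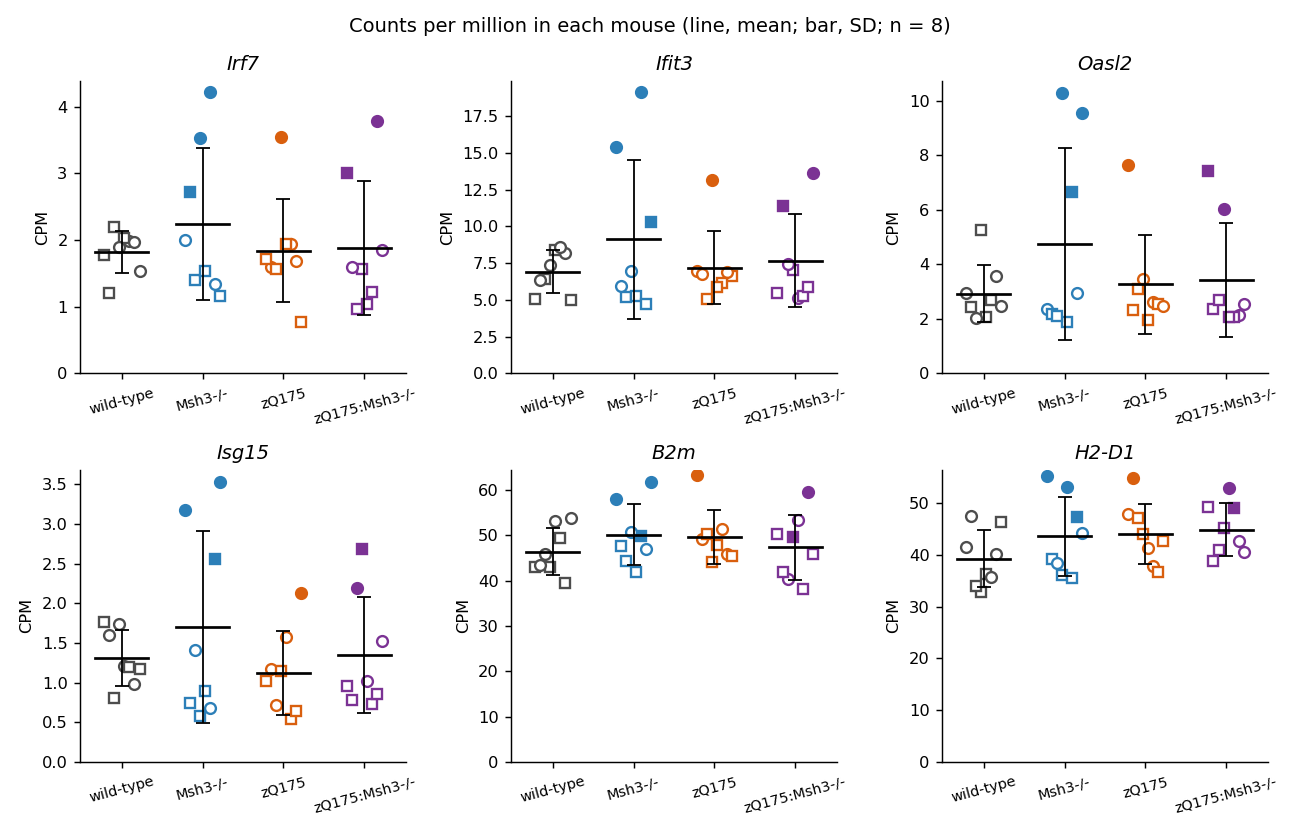
Points are the CPM of each mouse by genotype, with circles for females, squares for males and filled symbols for the 6 mice, and lines and bars give the mean and SD of 8 mice. The 6 filled symbols lie above all open ones in Irf7, Ifit3, Oasl2 and Isg15, at 2.72 CPM or more in Irf7 beside at most 2.19 CPM, while the 4 groups overlap in each gene.

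The comparison of zQ175 with wild-type mice asks what the expanded repeat does to these genes when Msh3 is present. No member passed both thresholds, an adjusted p under 0.05 over all genes and a change of at least 1.2-fold, by edgeR's quasi-likelihood test, against 11.6% of all 16610 genes tested. DESeq2 also called 0 members and limma on TPM called 2. At an unadjusted p under 0.05, 7 of 59 members (11.9%) and 36.5% of all genes differed. The median log2 fold change of the 59 members was 0.03 beside 0.01 for all genes, and 33 were higher and 26 lower. With the 6 mice left out, 1 of them zQ175, the median was −0.04, with 26 members higher and 32 lower, and 9 of 58 (15.5%) had an unadjusted p under 0.05, against 35.3% of all genes.

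Of the 59 members, 3 had an adjusted p under 0.05 with smaller changes. Over all 16610 genes tested, 4398 had an adjusted p under 0.05, whatever the size of the change. Irf3, which carries signals from nucleic acid sensors, lay between 16.5 and 19.8 CPM with a median of 17.8 CPM in wild-type mice and between 16.4 and 23.4 CPM with a median of 21.3 CPM in zQ175 mice. Its log2 fold change was 0.20 ± 0.06 (SE, edgeR adjusted p = 0.0122). Irf2, a repressor that competes with Irf1, had medians of 13.5 and 15.6 CPM and rose by 0.21 ± 0.06 in log2 (edgeR adjusted p = 0.00813). H2-DMa, which loads peptides on class II, had medians of 11.9 and 10.4 CPM, with a log2 fold change of −0.22 ± 0.08 (edgeR adjusted p = 0.0352). Each of the 3 had an edgeR adjusted p under 0.05 without the 6 mice too. The exons of Irf3 overlap those of Bcl2l12 and the exons of H2-DMa those of Brd2 on the opposite strand, and whether counting used strand is not given in the sources used here.

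The class I genes changed little in this comparison. B2m had a median of 44.7 CPM in wild-type and 48.5 CPM in zQ175 mice, with a log2 fold change of 0.10 and a 95% confidence interval of −0.08 to 0.28. H2-K1 changed by 0.01 in log2 (−0.19 to 0.20) and H2-D1 by 0.17 (−0.03 to 0.37). For Tap1, Tap2 and Tapbp the log2 fold changes were 0.03 (−0.28 to 0.34), −0.05 (−0.22 to 0.11) and 0.04 (−0.09 to 0.17). The intervals of these 6 genes leave out a 1.5-fold change in either direction. That of 35 of the 59 members did so, beside 13178 of all 16610 genes tested.

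Interferon-stimulated members had wider intervals. Isg15 changed by −0.24 in log2 (−0.99 to 0.50), Ifit3 by 0.04 (−0.53 to 0.62), Oasl2 by 0.14 (−0.66 to 0.94) and Bst2 by −0.23 (−0.83 to 0.37). Each of these intervals held a 1.5-fold change in at least 1 direction: upwards for Ifit3, downwards for Isg15 and Bst2 and both ways for Oasl2. Without the 6 mice the log2 fold changes were −0.41 for Isg15, −0.12 for Ifit3, −0.14 for Oasl2 and −0.40 for Bst2, and none passed the threshold. Those mice had been picked for their height in Ifit3 and Oasl2.

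Among the factors, Stat2 had medians of 18.97 CPM in wild-type and 19.9 CPM in zQ175 mice, with a log2 fold change of 0.04 (−0.09 to 0.17). Irf1, an activator induced by interferon gamma, changed by 0.04 (−0.17 to 0.25), and Irf8, which microglia need for their development, by −0.11 (−0.29 to 0.06). The ranges of the groups overlapped in each of these genes. Ifitm3, which blocks viral entry, had medians of 6.98 and 5.70 CPM and a log2 fold change of −0.17 (−0.47 to 0.12), and Ifi27 changed by 0.04 (−0.25 to 0.33). The class II chains H2-Aa and H2-Ab1, which reached at most 1.42 and 1.36 CPM in any mouse, changed by 0.02 (−0.73 to 0.78) and −0.11 (−0.74 to 0.52).

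In mice without Msh3, zQ175:Msh3-/- were compared with Msh3-/- mice, and 2 members fell, H2-Q2 and Ifi27l2a, beside 10.6% of all genes called. The members' median log2 fold change was −0.11 and 41 of 59 were lower, against a median of 0.01 for all genes. Of the 16 mice, 5 were among the 6 that stood apart, 3 of them Msh3-/-. With the 6 mice left out, the median was −0.00 and 32 of 58 members were lower.

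H2-Q2 (chr17:35342242-35346762), a non-classical class I gene, lay between 0.577 and 1.60 CPM in Msh3-/- mice with a median of 0.932 CPM, and between 0.342 and 0.888 CPM in zQ175:Msh3-/- mice with a median of 0.565 CPM. The ranges overlapped, and the 3 highest mice were the 3 Msh3-/- mice of the 6. The log2 fold change was −0.88 ± 0.21 (edgeR adjusted p = 0.0019). Without the 6 mice it was −0.53 with an edgeR adjusted p of 0.161 and did not pass.

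Ifi27l2a (chr12:103442167-103443680), a small relative of Ifi27, lay between 0.385 and 1.74 CPM in Msh3-/- mice with a median of 0.659 CPM, and between 0.0602 and 1.25 CPM in zQ175:Msh3-/- mice with a median of 0.255 CPM. In the second group the highest values were those of male 4, at 1.25 CPM, and female 2, at 0.801 CPM, both among the 6, and the remaining 6 mice were at or below 0.342 CPM. The log2 fold change was −1.09 ± 0.40 (edgeR adjusted p = 0.0424). The gene had 294 reads over all 32 mice, and the call was lost in 9 of 16 fits that left out 1 mouse. It was also lost with the replicate number as a block (edgeR adjusted p = 0.0556). Without the 6 mice the gene did not pass the filter on low counts and was not tested. It then lay between 0.385 and 0.689 CPM in 5 Msh3-/- and between 0.0602 and 0.342 CPM in 6 zQ175:Msh3-/- mice. Of the 6 mice left out, 5 were among the 6 highest for this gene. The zQ175:Msh3-/- mice that reached into the Msh3-/- range, male 4 and female 2, were among them, so the lack of overlap was set by that choice.

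A further 4 members had an adjusted p under 0.05 with less than a 1.2-fold change. With H2-Q2 and Ifi27l2a, 6 of 59 members had such a p, beside 4002 of all 16610 genes tested. Stat3, a factor of cytokine signalling, rose by 0.09 ± 0.03 in log2 (edgeR adjusted p = 0.0313). Tap2 fell by 0.23 (SE 0.08, edgeR adjusted p = 0.0409), H2-DMa fell by 0.25 (SE 0.08, edgeR adjusted p = 0.0195) and H2-Ke6 fell by 0.21 (SE 0.05, edgeR adjusted p = 0.0021). H2-DMa had medians of 13.6 and 11.3 CPM, and H2-Ke6 of 26.6 and 23.0 CPM. H2-Ke6 had an edgeR adjusted p of 0.0404 without the 6 mice, and Stat3, Tap2 and H2-DMa missed the threshold (0.163, 0.179 and 0.089). Exons of another gene overlap those of each of these 4 genes.

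Irf8 lay between 7.45 and 12.4 CPM in Msh3-/- mice and between 7.42 and 9.97 CPM in zQ175:Msh3-/- mice, and its log2 fold change of −0.23 ± 0.09 missed the threshold (edgeR adjusted p = 0.0526). The class I genes B2m, H2-K1 and H2-D1 changed by −0.08 (95% confidence interval −0.27 to 0.10), −0.11 (−0.30 to 0.09) and 0.04 (−0.16 to 0.24). Their ranges overlapped, as did those of Isg15, Ifit3 and Oasl2, which changed by −0.36 (−1.07 to 0.36), −0.27 (−0.83 to 0.30) and −0.49 (−1.26 to 0.28). The last 3 changed by 0.19, 0.10 and −0.00 without the 6 mice, none past the threshold. Ifit3 and Oasl2 were the genes by which those mice were picked.

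**Figure D4:**
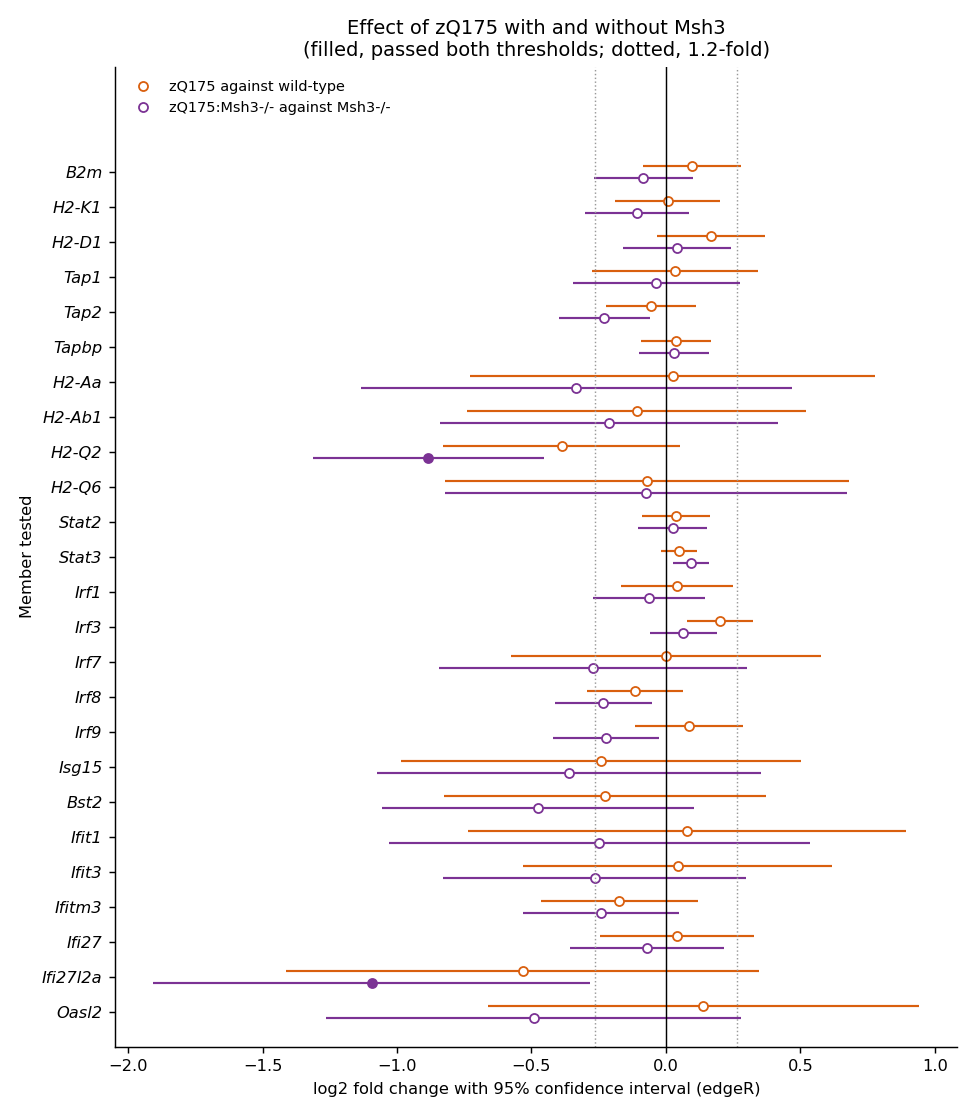
Points give the log2 fold change of each named member and bars its 95% confidence interval, for zQ175 against wild-type and for zQ175:Msh3-/- against Msh3-/-, with filled points for genes past both thresholds and dotted lines at 1.2-fold. H2-Q2 and Ifi27l2a, at −0.88 and −1.09, are the filled points, and the intervals of the Ifit genes, Isg15, Oasl2 and Bst2 are wider than those of B2m, H2-K1 and Tapbp.

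The effect of Msh3 loss on the zQ175 striatum was the main question of the cross, and zQ175:Msh3-/- were set against zQ175 mice for it. No member passed both thresholds by edgeR, DESeq2 or limma, against 0.00602% of all genes by edgeR, and 0 of 59 members had an unadjusted p under 0.05, against 3.7% of all genes. B2m changed by −0.06 in log2 (95% confidence interval −0.25 to 0.12), H2-D1 by 0.03 (−0.17 to 0.23), and Irf9 by 0.03 (−0.17 to 0.23). For 35 of 59 members the interval left out a 1.5-fold change, and for 18 a 1.2-fold change. Over all 16610 genes tested it did so for 14320 and 10442. Isg15, at 0.29 (−0.46 to 1.03), and Ifit1, at 0.18 (−0.63 to 0.98), were not among these members. The members' median log2 fold change was 0.04, with 38 higher and 21 lower, beside a median of 0.003 for all genes. With the 6 mice left out, 2 of them zQ175:Msh3-/- and 1 zQ175, the median was −0.04, with 21 higher and 37 lower. Ifit1, high in all 6 mice, then changed by −0.18.

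Msh3-/- mice were set against wild-type mice to see what the knockout does without the expanded repeat. No member passed both thresholds by edgeR, DESeq2 or limma, against 0.00602% of all genes by edgeR, and 2 of 59 members had an unadjusted p under 0.05, against 5.09% of all genes. The members' median log2 fold change was 0.12, and 48 of 59 were higher in Msh3-/- mice, beside a median of −0.00 for all genes. With the 6 mice left out, 3 of them Msh3-/- and none wild-type, the median was −0.01 and 28 of 58 were higher. At an unadjusted p under 0.05, 6 of 58 (10.3%) then differed, 4 lower and 2 higher, against 4.61% of all genes. Isg15, Ifit1 and Ifit3 were among the lower ones, at −0.62, −0.52 and −0.30 in log2 (edgeR adjusted p = 0.997 for each), and the mice had been left out for their height in Ifit3.

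The 2 members of the comparison of all mice were Irf9 and H2-Q2. Irf9, the partner of Stat2, lay between 7.74 and 10.1 CPM in wild-type mice with a median of 9.22 CPM and between 9.12 and 14.0 CPM in Msh3-/- mice with a median of 11.3 CPM. Its log2 fold change was 0.33 ± 0.10 (edgeR adjusted p = 0.662). Without the 6 mice Irf9 lay between 9.12 and 11.5 CPM in Msh3-/- mice with a median of 10.4 CPM, and the log2 fold change was 0.19 (edgeR adjusted p = 0.997). H2-Q2 changed by 0.47 ± 0.20 (edgeR adjusted p = 0.926), and by 0.08 without the 6 mice, with medians of 0.784 CPM in wild-type and 0.791 CPM in Msh3-/- mice. Oasl2, with medians of 2.56 and 2.66 CPM but highest values of 5.24 and 10.3 CPM, had a log2 fold change of 0.73 ± 0.38 that also missed the threshold (edgeR adjusted p = 0.926). Its direction turned without the 6 mice, to −0.33 (edgeR adjusted p = 0.997), and the Msh3-/- median was 2.17 CPM. The 6 mice had been picked by Oasl2 as well as Ifit3, and none was wild-type, so a lower value here was set by that choice.

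Whether the zQ175 effect depended on Msh3 was tested as an interaction. No member passed both thresholds by edgeR, DESeq2 or limma, as for all genes by edgeR (0.0%), and 1 of 59 members, Irf9, had an unadjusted p under 0.05, against 4.44% of all genes. The interaction was below 0 for 49 of 59 members with a median of −0.11 in log2, beside 8049 of all 16610 genes with a median of 0.004. Without the 6 mice, of which 3 were Msh3-/- and none wild-type, it was below 0 for 31 of 58 members with a median of −0.02.

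Between zQ175:Msh3-/- and wild-type mice, 2 of 59 members passed both thresholds by edgeR, beside 12% of all genes, and 10 (16.9%) had an unadjusted p under 0.05, against 37.2% of all genes. This comparison shares its wild-type mice with the first. Stat3 (log2 fold change 0.10 ± 0.03, edgeR adjusted p = 0.0257) and H2-Ke6 (−0.16 ± 0.05, edgeR adjusted p = 0.0154) changed by less than 1.2-fold, and without the 6 mice their adjusted p values were 0.0606 and 0.0493. H2-D1, with medians of 38.2 and 43.9 CPM, changed by 0.20 (−0.00 to 0.40), and B2m by 0.03 (−0.15 to 0.22).

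Females and males were compared within genotypes over all 32 mice, and H2-Q6 was the member that passed, higher in females, beside 0.169% of all genes. H2-Q6 (chr17:35424850-35430055), a non-classical class I gene of the Qa-2 group, lay between 0.623 and 2.75 CPM in 15 females with a median of 2.00 CPM and between 0.474 and 1.90 CPM in 17 males with a median of 0.825 CPM. The medians of females exceeded those of males in each genotype: 1.80 against 0.726 CPM in wild-type, 1.71 against 1.05 CPM in Msh3-/-, 1.42 against 0.772 CPM in zQ175 and 2.29 against 0.843 CPM in zQ175:Msh3-/- mice. In wild-type and zQ175:Msh3-/- mice the sexes did not overlap. The log2 fold change was 0.95 ± 0.20 (edgeR adjusted p = 0.0217).

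The near-identical neighbour H2-Q7 lay between 0.692 and 4.35 CPM in females and between 0.590 and 2.74 CPM in males, with a log2 fold change of 0.70 ± 0.22 (edgeR adjusted p = 0.239), and reads of the pair may have been divided between them. At an unadjusted p under 0.05, 15 of 59 members (25.4%) differed, all higher in females, against 9.31% of all genes. These included B2m (0.19 ± 0.05 in log2, edgeR adjusted p = 0.158), Ifit3 (0.52 ± 0.18, edgeR adjusted p = 0.297) and Ifit1 (0.70 ± 0.25, edgeR adjusted p = 0.343). Of the 6 mice that stood apart, 4 were female. Without the 6 mice 10 of 58 members (17.2%) had an unadjusted p under 0.05, 9 of them higher in females, against 6.59% of all genes, and H2-Q6 did not pass (log2 fold change 0.82, adjusted p = 0.268). Without female 2 of the zQ175:Msh3-/- group alone, its adjusted p was 0.0507.

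**Figure D5:**
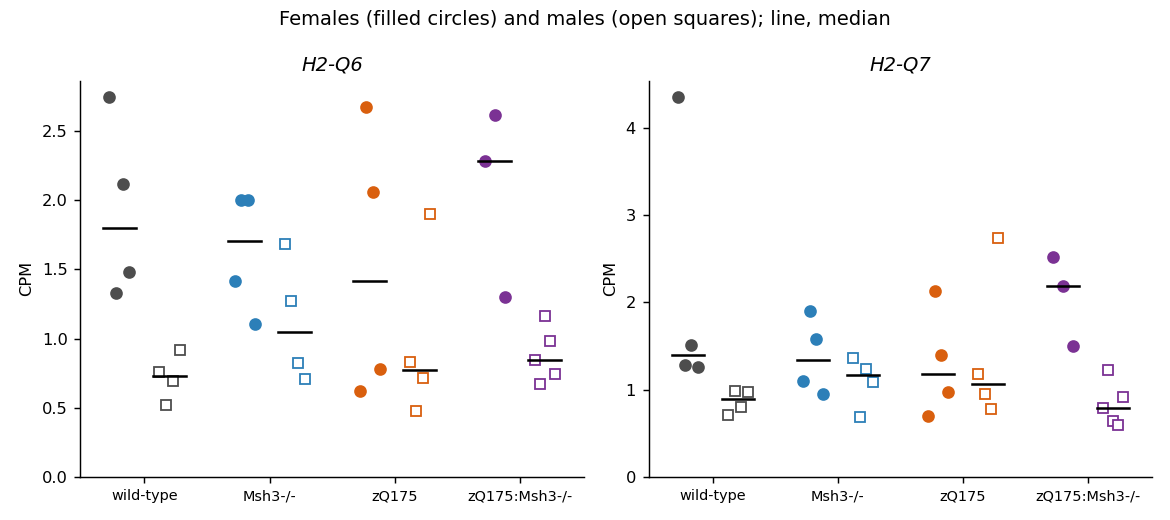
Points are the CPM of H2-Q6 and H2-Q7 in each mouse, with filled circles for females, open squares for males and lines for the medians, by genotype. In H2-Q6 every wild-type female, at 1.33 CPM or more, is above every wild-type male, at 0.914 CPM or less, and in zQ175 mice the sexes overlap.

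The rest of the pathway was read from lists of genes that are not members, most of which passed in neither direction. Of all 16610 genes tested, 781 rose and 1144 fell past both thresholds between zQ175 and wild-type mice. Between zQ175:Msh3-/- and Msh3-/- mice 778 rose and 990 fell. Between zQ175 and wild-type mice, 3 of 9 receptor and kinase genes rose and none fell. Ifngr2, a chain of the interferon gamma receptor, rose by 0.55 ± 0.07 in log2 (edgeR adjusted p = 1.08e-07) and by 0.47 ± 0.07 between zQ175:Msh3-/- and Msh3-/- mice (2.74e-06). Ifnlr1, a chain of the interferon lambda receptor, rose by 1.397 ± 0.31 and by 1.45 ± 0.31 (edgeR adjusted p = 0.000631 and 0.000504). Tyk2, a receptor kinase, rose by 0.27 ± 0.06 in the first comparison (edgeR adjusted p = 0.00176) and by less than 1.2-fold in the second.

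Of 24 genes of antigen processing, 22 were tested. Between zQ175 and wild-type mice 3 rose and 1 fell, beside 11.6% of all genes called. The genes that rose were Psme1, an activator of the proteasome (log2 fold change 0.43 ± 0.07, edgeR adjusted p = 7.06e-06), Psmb10, a subunit of the immunoproteasome (0.42 ± 0.10, edgeR adjusted p = 0.00108), and Tapbpl, a relative of tapasin (0.50 ± 0.11, edgeR adjusted p = 0.000795). Fcgrt, a receptor for IgG with a class I fold, fell by 0.27 (SE 0.06, edgeR adjusted p = 0.000653). The other immunoproteasome subunits, Psmb8 and Psmb9, had log2 fold changes of −0.02 and 0.12 (edgeR adjusted p = 0.94 and 0.7), and Nlrc5, the activator of class I genes, of −0.49 (edgeR adjusted p = 0.189). In mice without Msh3, Psme1 alone of these genes passed both thresholds (0.35 ± 0.07, edgeR adjusted p = 0.000229).

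Of 46 other interferon-stimulated genes tested, none rose and 2 fell in zQ175 mice, beside 11.6% of all genes called. Helz2 fell by 0.42 (SE 0.12, edgeR adjusted p = 0.00629) and Sp100 by 0.41 (SE 0.14, edgeR adjusted p = 0.0244) in log2. Between zQ175:Msh3-/- and Msh3-/- mice 1 of 46 fell, Helz2 by 0.52 (SE 0.12, edgeR adjusted p = 0.00119). The median log2 fold changes of the list were −0.04 and −0.05. Of 17 sensors and adaptors tested, Myd88, the adaptor of Toll-like receptors, rose in zQ175 mice by 0.27 (SE 0.10, edgeR adjusted p = 0.0494) and 0 passed in mice without Msh3. Of 10 negative regulators, Socs2, an inhibitor of growth hormone and cytokine signalling, fell in zQ175 mice by 0.43 (SE 0.09, edgeR adjusted p = 0.000264). None of the genes on these lists passed between zQ175:Msh3-/- and zQ175 or between Msh3-/- and wild-type mice by edgeR, beside 0.00602% of all genes in each.

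Cell type markers moved in the same zQ175 comparisons, and their part in the members' values was not tested. Between zQ175 and wild-type mice 7 of 8 spiny neuron markers fell, with sums of 3324 to 4371 CPM beside 5886 to 7240 CPM, as did 6 of 10 endothelial markers, with sums of 176.0 to 241.6 CPM beside 248.1 to 278.6 CPM. None of 15 microglial markers passed, with sums of 507.0 to 560.6 CPM beside 536.7 to 613.9 CPM. Between zQ175:Msh3-/- and Msh3-/- mice 7 of 8 spiny neuron, 2 of 10 endothelial and 1 of 15 microglial markers fell. Over all genes tested, 11.6% were called in the first of these comparisons and 10.6% in the second.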

How the data were processed

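The authors sequenced polyadenylated RNA of 32 striata as paired-end reads and deposited whole-number counts per gene, not normalized, and a table named as FPKM whose columns each sum to 1000000, treated here as TPM. The build named in the submitters' notes is GRCm38.p6, and the aligner, counter and strand setting are not given in the sources used here. All genes were tested with edgeR 4.0.16 (R 4.3.3, TMM, a filter on low counts that kept 16610 genes, robust quasi-likelihood fits of the 4 genotypes, Benjamini-Hochberg adjustment, common coefficient of variation 0.0985), after tests on simulated data. SEs are from the F statistic, or, below 0.02 in log2, the median over other pairs. Sex was tested beside genotype. DESeq2 1.42.0, limma 3.58.1 on log2(TPM + 0.1), which understates changes of low genes, and other settings were alternatives, with Python 3.11.15 for summaries. Positions are from GENCODE M21.

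Total counts per mouse were 12359347 to 25030335, and 3 reads are 2.43e-05% of the shallowest library. Counts of any 2 mice of a genotype differed by more than sampling noise (chi-square per degree of freedom at least 4.26). Genes were named by a rule: members called in any comparison, up to 30, 25 key members, the 3 most abundant, those with no read, and pathway genes where called. Members and lists were chosen with earlier results of these data known. No column was left out (0 unused). Some results of single members are not reported here. The 6 mice set apart in the report were first picked by 3 members, and Ifit3 and Oasl2 alone give the same mice. Same-numbered mice of the same sex share nothing stated in the labels. Their deviations correlated between −0.253 and 0.608 over 45 pairs, 35 of them over 0.1, with a median of 0.242. Pairing was taken as given only with a stated shared source or with every pair over 0.1, and neither held, although most pairs deviated together, so the block is an alternative.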

Additional observations from a re-analysis of the deposited data

Results flagged for a closer look

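In sets of 8 mice of a genotype, a mouse was taken to stand apart where its gap to the next mouse, divided by the range of the group, was above the 95% critical value of Dixon. This occurred in 8 of 100 sets, where chance gives about 1 in 20, or 5 sets. Female 2 of the zQ175 group, one of the 6 mice described above, accounted for 5 of them. It had the highest B2m (63.2 CPM beside 44.1 to 51.4 CPM in the other zQ175 mice, gap share 0.575) and Irf9 (12.7 beside 8.3 to 10.0 CPM, 0.56). It also had the highest Ifit1 (4.88 beside 1.49 to 2.35 CPM, gap share 0.618), Ifit3 (13.1 beside 5.08 to 6.99 CPM, 0.665) and Oasl2 (7.63 beside 1.94 to 3.45 CPM, 0.581). The 6 mice had been picked by Ifit3 and Oasl2, so its height in these genes was set in part by that choice. It was the only one of the 6 in its group, while 3 were Msh3-/- and 2 zQ175:Msh3-/-. Where a group holds more than 1 high mouse, the gap to the next mouse can be narrow. Msh3-/- female 3 was higher in Ifit3 (19.1 CPM) and Oasl2 (10.3 CPM) and was not flagged.

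The other 3 sets were in other mice. Tapbp was highest in wild-type male 2 (31.1 beside 23.3 to 26.6 CPM, gap share 0.548). H2-Ab1, a class II chain, was lowest in wild-type female 3 (0.151 beside 0.513 to 1.04 CPM, gap share 0.62). Stat3 was highest in zQ175:Msh3-/- male 3 (63.5 beside 55.9 to 58.5 CPM, gap share 0.637).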

How the results depend on the processing

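No called value changed direction in the alternatives run, and 433 of 447 values of single genes stayed on their side of the threshold, not counting the fits that left out 1 mouse. No member passed between zQ175:Msh3-/- and zQ175, between Msh3-/- and wild-type or in the interaction under any of them. Between zQ175 and wild-type mice 0 members passed, against 1 with no filter on low counts (Ifi27l2b), 1 with only the groups compared, 2 in each limma fit on TPM (Ifi27l2b and Irf3 with a pseudocount of 0.1) and 3 with no fold threshold. Between zQ175:Msh3-/- and Msh3-/- mice 2 passed, against 1 with sex in the model, 1 with only the groups compared, 0 with at least 10 counts in every mouse, 1 without the 6 mice and 6 with no fold threshold. With the replicate block 1 passed there, H2-Q2, and what the numbers share is not stated (Ifi27l2a then had an adjusted p of 0.0556). Between zQ175:Msh3-/- and wild-type mice 2 passed, against 5 and 4 by limma on log2(TPM + 0.1) with and without the filter, 1 without the 6 mice and 4 with no fold threshold. Between females and males 1 passed, against 0 with at least 10 counts in every mouse, in wild-type and Msh3-/- mice alone, in each limma fit and without the 6 mice. Leaving out the 6 mice was a setting chosen after seeing the data. With 1 mouse left out at a time, members passing ranged from 1 to 4 between zQ175:Msh3-/- and Msh3-/- mice (4 without zQ175:Msh3-/- male 4, 1 without zQ175:Msh3-/- males 1 and 5 and female 1 or Msh3-/- female 2), from 2 to 3 between zQ175:Msh3-/- and wild-type mice and from 0 to 2 between the sexes (0 without zQ175:Msh3-/- female 2, 2 without zQ175 male 4). The causes were not tested. Depth limits the members under 1 CPM, where Ifi27l2a ranged from −1.54 to −0.86 in log2 in these fits.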
